A study of Rattus norvegicus with 9 samples.

Results

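The thrombospondin and matricellular genes described here are Thbs1, Thbs2, Thbs3, Postn, Tnc, Sparc, Fn1, Abi3bp and Tgfbi, chosen by symbol. They are 9 of the 34267 genes in the table, each symbol stood on 1 row, and all 9 passed the filter on low values (at least 1 FPKM in at least 3 libraries). FPKM are fragments per kilobase of gene, scaled for library depth. Polyadenylated RNA was sequenced from primary, wild-type rat cartilage progenitor cells of condylar cartilage, in 9 libraries. The P9 group (n = 3) held cells cultured to passage 9, the study's model of replicative senescence. The FFSS group (n = 3) held cells at passage 3 that also underwent flow fluid shear stress, in which liquid streams over the culture, as a model of mechanically induced degeneration. The P3 group (n = 3) held passage 3 cells without shear and was the control for both. The study asked what the models have in common. The labels give neither the strength nor the duration of the shear, nor the animals or cultures behind each library. The p-values therefore measure only the spread between these libraries, which may be technical.

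Matricellular proteins are secreted into the extracellular matrix and act there mainly on cells, by binding receptors, growth factors and proteases, more than as structural fibres. Thrombospondins 1 and 2 are trimers that bind Cd47, Cd36 and integrins, and thrombospondin 1 can also activate latent TGF-beta. Fibronectin is the provisional scaffold onto which many of the others assemble, and periostin and tenascin C are typical of remodelling connective tissue.

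At passage 9 Postn and Tnc rose, and Thbs2 and Abi3bp fell. Abi3bp was 36.6-fold and Thbs2 9.21-fold lower than at passage 3 by group means, and Postn was 5.27-fold higher. Without P9 replicate 3, where Abi3bp was highest, its fold was 61.0. Under shear Thbs2 rose, while Thbs1, Fn1 and Postn fell, all by no more than 1.98-fold. Thbs3, Sparc and Tgfbi passed in neither comparison with P3.

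In the Rnor_6.0 build that the submitters' processing notes name, Thbs1 lies on chromosome 3 (109862117 to 109873466, plus strand), Thbs2 on chromosome 1 (56653938 to 56683731, minus) and Thbs3 on chromosome 2 (188528979 to 188540736, plus). Postn lies on chromosome 2 (143656793 to 143688087, plus), Tnc on chromosome 5 (79789671 to 79874671, minus) and Fn1 on chromosome 9 (78900103 to 78969078, minus). Sparc lies on chromosome 10 (40742400 to 40764185, minus), Abi3bp on chromosome 11 (46208075 to 46369577, minus) and Tgfbi on chromosome 17 (8400146 to 8429338, minus). All are annotated as protein-coding, and only the Fn1 locus overlapped another row of the table. That neighbour, on the opposite strand, shared 265 bases with it and reached at most 0.670 FPKM.

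RefSeq promoter windows (build GRCr8, a different build from that of the table) were matched by symbol for 7 of the 9 genes, not for Thbs2 or Fn1. The 250 bases before the annotated start are shown for 4 genes whose level passed the test in at least 1 comparison and whose window held a searched motif. They are given 5′ to 3′ on the gene's own strand, with capitals marking the matches described after them. The windows are chr2:140677811-140678060 on the plus strand for Postn, chr5:82476132-82476381 on the minus strand for Tnc, chr3:125510000-125510249 on the plus strand for Thbs1 and chr11:57597990-57598239 on the minus strand for Abi3bp.
Postn: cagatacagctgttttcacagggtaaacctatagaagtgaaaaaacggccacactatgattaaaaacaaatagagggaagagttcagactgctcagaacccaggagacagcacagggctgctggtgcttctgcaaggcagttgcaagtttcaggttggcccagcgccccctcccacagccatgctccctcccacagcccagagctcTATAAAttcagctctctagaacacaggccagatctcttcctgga
Tnc: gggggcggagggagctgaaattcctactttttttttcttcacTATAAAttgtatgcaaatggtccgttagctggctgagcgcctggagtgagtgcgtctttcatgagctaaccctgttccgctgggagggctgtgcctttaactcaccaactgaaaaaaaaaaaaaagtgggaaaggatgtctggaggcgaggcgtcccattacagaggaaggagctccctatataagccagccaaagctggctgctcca
Thbs1: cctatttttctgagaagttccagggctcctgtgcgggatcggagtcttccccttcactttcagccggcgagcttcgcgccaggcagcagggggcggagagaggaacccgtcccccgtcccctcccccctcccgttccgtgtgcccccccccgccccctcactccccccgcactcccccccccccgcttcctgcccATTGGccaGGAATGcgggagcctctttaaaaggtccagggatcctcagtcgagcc
Abi3bp: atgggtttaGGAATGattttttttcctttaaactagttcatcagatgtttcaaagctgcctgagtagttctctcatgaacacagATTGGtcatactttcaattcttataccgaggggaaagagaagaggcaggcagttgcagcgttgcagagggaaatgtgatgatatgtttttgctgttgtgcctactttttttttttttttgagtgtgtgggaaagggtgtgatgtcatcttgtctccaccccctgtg
The motifs, read on both strands with overlaps allowed, were TATAAA (the TATA box core), TGANTCA (AP-1), GGAATG (TEAD), CCAAT (the NF-Y core) and the CArG box of the serum response factor. TATAAA stood in the windows of Postn, 44 to 39 bases before the start, and Tnc, 208 to 203 bases before it, and in 12.9% of all 33469 promoter windows. It was searched as exact letters only. The Tnc window also holds tatataag, closer to the start than its TATAAA match, which the search did not count. GGAATG stood in those of Thbs1, Sparc and Abi3bp and in 12.1% of all. CCAAT, on the reverse strand, stood in those of Thbs1, Thbs3 and Abi3bp and in 34.0% of all. In Thbs1 the CCAAT match ended 51 bases and the GGAATG match began 47 bases before the start. TGANTCA (6.34% of all windows) and the CArG box (1.497%) were found in none of the 7 windows. These matches describe letters and no binding was measured.

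The libraries held 13264930 to 15323790 fragments. FFSS replicate 1 was unlike its fellow FFSS libraries: across tested genes its Pearson r of log2(FPKM + 1) was 0.915 and 0.947 with FFSS replicates 2 and 3, against 0.936 to 0.945 with the P3 libraries, so the fold changes of the 9 genes and the counts of the related lists are also given without it. Mitochondrial transcripts took 2.31 to 2.56% of fragments in P9, 2.96 to 3.75% in FFSS and 2.12 to 2.32% in P3. Among markers of the labelled tissue, Matn1 was at 0 in every library and Col2a1, the main collagen of cartilage, averaged 0.0733 FPKM in P9, 0.175 FPKM in FFSS and 0.828 FPKM in P3. Acan, the main proteoglycan of cartilage, averaged 561 FPKM in P9, 40.2 FPKM in FFSS and 128 FPKM in P3, and was called higher in P9 and lower in FFSS. Sox9, the master regulator of chondrocytes, averaged 6.46 FPKM in P9, 12.7 FPKM in FFSS and 4.52 FPKM in P3, and was called higher in FFSS. Of 8 tested cartilage markers, 1 was higher (Acan) and 2 lower (Col11a1 and Sox6) in P9 relative to P3. In FFSS 4 were higher (Sox9, Sox5, Sox6 and Hapln1) and 2 lower (Acan and Col11a1). Col11a1 averaged 234 FPKM in P9, 478 FPKM in FFSS and 857 FPKM in P3. Of 9 tested mesenchymal progenitor markers, 1 was lower in P9, and 4 were higher in FFSS. Summed markers of endothelium and epithelium did not exceed 3.50 and 2.13 FPKM in any library.

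Thbs2, the angiogenesis-inhibiting relative of Thbs1, went in opposite directions in the models. It stood at 38.0, 39.9 and 61.3 FPKM in the P9 libraries, at 687, 951 and 902 FPKM in FFSS, and at 427, 396 and 458 FPKM in P3. The 3 groups did not overlap, with P9 lowest and FFSS highest. The log2 fold change of FPKM + 1 was -3.21 ± 0.20 (SE) for P9 minus P3 (limma over all tested genes, adjusted p = 6.33e-05) and 0.97 ± 0.20 for FFSS minus P3 (adjusted p = 0.0109). The direct difference, P9 minus FFSS, was -4.18 (95% confidence interval -4.63 to -3.73, adjusted p = 3.88e-06). The calls held under all 18 alternatives, those without a single library included.

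Thbs1, the most abundant thrombospondin, was lower under shear. It stood at 4527, 3545 and 3500.5 FPKM in P9, at 1716, 2291 and 2427 FPKM in FFSS, and at 3623, 3992 and 3088 FPKM in P3. All FFSS libraries lay below all others, while P9 and P3 overlapped. The log2 fold change was -0.74 ± 0.19 for FFSS minus P3 (limma, adjusted p = 0.0251) and 0.85 ± 0.19 for P9 minus FFSS (adjusted p = 0.00990). For P9 minus P3 it was 0.11, with an interval of -0.32 to 0.54 (adjusted p = 0.790). Leaving out P3 replicate 1 (adjusted p = 0.0894) or P3 replicate 2 (0.0981) ended the FFSS call, and over its 18 alternatives the adjusted p ran from 0.000385 to 0.170.

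The balance between Thbs1 and Thbs2 differed from that of P3 in opposite directions in the models. The ratio of Thbs1 to Thbs2 FPKM was 119, 88.7 and 57.1 in P9, 2.50, 2.41 and 2.69 in FFSS, and 8.48, 10.1 and 6.74 in P3. No library of one group reached the ratio of another. The ratio restates the values of the 2 genes and was not tested, and in P9 relative to P3 only Thbs2 passed. Thbs3, a pentameric thrombospondin of skeletal tissues, was low throughout, at 11.3, 13.9 and 12.4 FPKM in P9, 12.4, 24.1 and 18.8 FPKM in FFSS, and 14.1, 14.6 and 14.4 FPKM in P3. P9 lay wholly below P3, yet the log2 fold change of -0.19 did not pass (limma, adjusted p = 0.646). For FFSS minus P3 it was 0.29 (adjusted p = 0.328), and without FFSS replicate 1, the library at 12.4 FPKM, it was 0.54 and passed (adjusted p = 0.0139). Without FFSS replicate 2, the highest library, it was 0.08 (adjusted p = 0.775), and over its 18 alternatives the adjusted p ran from 0.00155 to 0.775. P9 minus FFSS was -0.48 (adjusted p = 0.103), -0.73 without FFSS replicate 1 (adjusted p = 0.00278) and -0.27 without FFSS replicate 2 (adjusted p = 0.278).

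**Figure D1:**
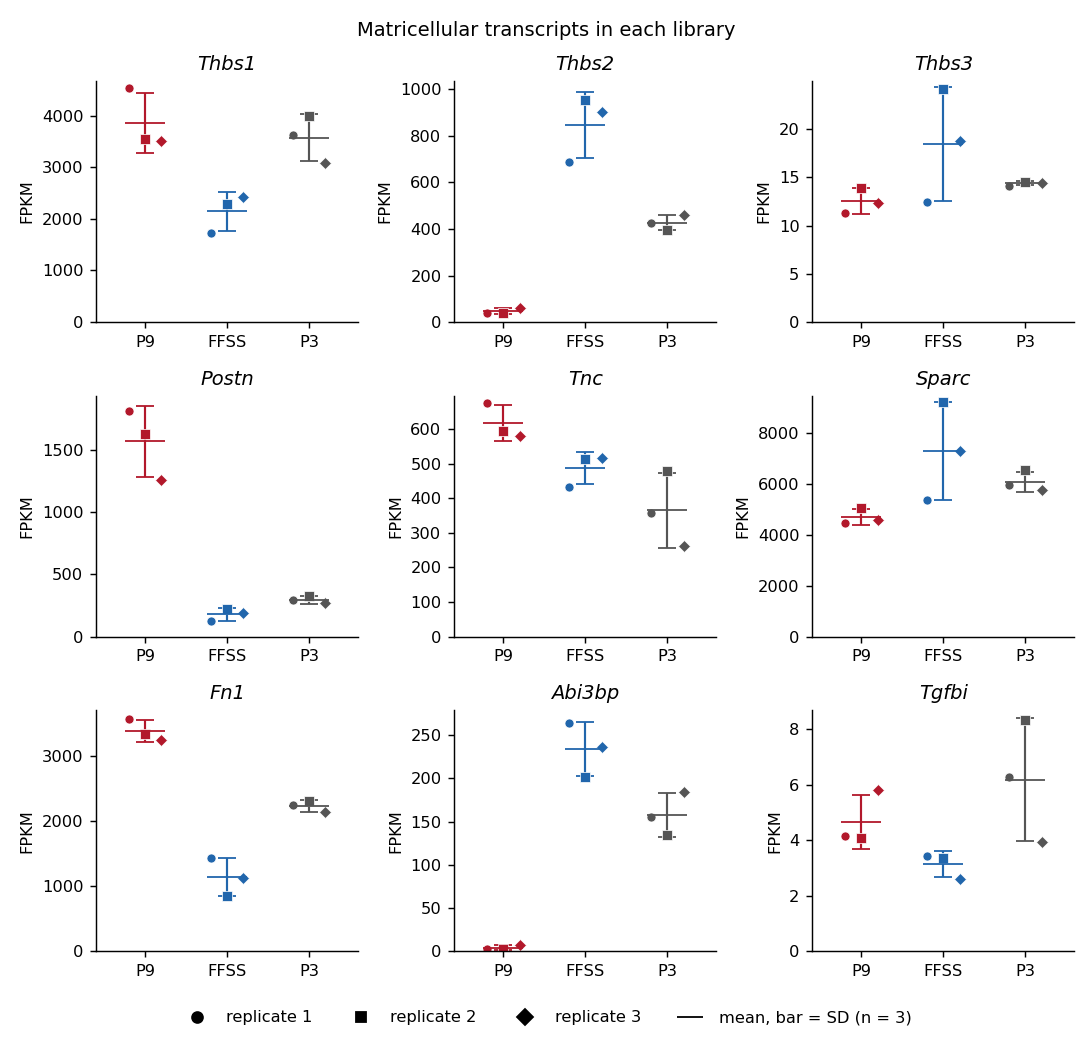
FPKM of each of the 9 genes (vertical axes, each from 0) in the P9, FFSS and P3 groups; each symbol is a library, horizontal bars are group means and error bars the SD of 3 libraries. Thbs2 and Abi3bp were near the bottom of their scales in P9, Postn stood at 1262 to 1817 FPKM in P9 against 267 to 330 FPKM in P3, and Thbs1 and Fn1 were lowest in FFSS.

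Postn, periostin, a fasciclin-domain protein that binds collagen and fibronectin, rose at passage 9. Its values were 1817, 1626 and 1262 FPKM in P9, 125, 226 and 191 FPKM in FFSS, and 297, 330 and 267 FPKM in P3. The groups did not overlap: P9 was highest and FFSS lowest. The log2 fold change was 2.38 ± 0.23 for P9 minus P3 (limma, adjusted p = 0.000447) and 3.14 ± 0.23 for P9 minus FFSS (adjusted p = 3.69e-05), and both held without any one library. For FFSS minus P3 it was -0.76 ± 0.23 (adjusted p = 0.0435). That call was lost without P9 replicate 2 (adjusted p = 0.0651), FFSS replicate 3 (0.0876) or P3 replicate 1 (0.118), 2 (0.136) or 3 (0.0813), and over its 18 alternatives the adjusted p ran from 0.000363 to 0.136.

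Fn1, fibronectin, the integrin-binding scaffold, fell under shear. It stood at 3562, 3327 and 3237 FPKM in P9, at 1431, 845 and 1127 FPKM in FFSS, and at 2245, 2313 and 2134 FPKM in P3, 3 levels without overlap. FFSS replicate 1 was the FFSS library nearest to P3. Fn1 had a log2 fold change of -1.01 ± 0.19 for FFSS minus P3 (limma, adjusted p = 0.00784) and of 1.60 ± 0.19 for P9 minus FFSS (adjusted p = 0.000452), and both held without each library in turn. For P9 minus P3 it was 0.60, with an interval of 0.17 to 1.02 before adjustment over genes, and did not pass (adjusted p = 0.0852). It passed without FFSS replicate 1 (0.0184) or FFSS replicate 2 (0.0241), and over its 18 alternatives the adjusted p ran from 0.00124 to 0.306.

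Tnc, tenascin C, a multi-armed glycoprotein of developing and injured tissue, stood at 675, 593 and 580.3 FPKM in P9, at 434, 513 and 515 FPKM in FFSS, and at 357, 477 and 261 FPKM in P3. P9 lay above both other groups, which overlapped, and P3 was the most scattered. Tnc rose in P9 relative to P3, with a log2 fold change of 0.79 ± 0.20 (limma, adjusted p = 0.0414). This call was lost without P9 replicate 1 (adjusted p = 0.128), 2 (0.118) or 3 (0.0885), FFSS replicate 3 (0.0666), or P3 replicate 1 (0.132) or 3 (0.123), and over its 18 alternatives the adjusted p ran from 0.00612 to 0.132. For FFSS minus P3 it was 0.45 (adjusted p = 0.140) and for P9 minus FFSS 0.34 (adjusted p = 0.233).

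Tgfbi, a TGF-beta-induced relative of periostin, was scarce. It stood at 4.15, 4.08 and 5.79 FPKM in P9, at 3.43, 3.37 and 2.596 FPKM in FFSS, and at 6.29, 8.34 and 3.93 FPKM in P3. FFSS lay wholly below both other groups, with 103 to 137 fragments per library against 155 to 307 in P3. The log2 fold change for FFSS minus P3 was -0.76 ± 0.24 and fell just short of the threshold (limma, adjusted p = 0.05003). It passed without FFSS replicate 1 (0.0412) or P3 replicate 3 (0.0243), and over its 18 alternatives the adjusted p ran from 0.000564 to 0.160. P9 minus P3 was -0.31 (adjusted p = 0.497) and P9 minus FFSS 0.45 (adjusted p = 0.175).

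Abi3bp, a secreted protein named for binding the SH3 domain of Abi3, was nearly lost at passage 9. It stood at 2.48, 2.70 and 7.78 FPKM in P9, or 120, 146 and 446 fragments. It stood at 264, 202 and 236 FPKM in FFSS and at 155, 134 and 185 FPKM in P3. FFSS lay wholly above P3 and P3 wholly above P9. On the log2 scale the fold change was -5.03 ± 0.32 for P9 minus P3 (limma, adjusted p = 7.71e-05) and -5.60 ± 0.32 for P9 minus FFSS (adjusted p = 1.39e-05), and both held without each library in turn. For FFSS minus P3 it was 0.57 (interval -0.16 to 1.30) and did not pass (adjusted p = 0.230), except without P9 replicate 3, the highest P9 library (adjusted p = 0.0386), and with library weights, over alternatives that ran from 0.0282 to 0.451. P9 replicate 3 enters that comparison only through the shared estimate of the spread.

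Sparc, osteonectin, a collagen-binding glycoprotein of bone and connective tissue, was among the most abundant transcripts of the cells. It ranked 4 of all genes by mean FPKM in P9, 2 in FFSS and 2 in P3. Its values were 4451, 5061 and 4597 FPKM in P9, 5374, 9218 and 7269 FPKM in FFSS, and 5963, 6523 and 5748 FPKM in P3. P9 lay wholly below both other groups, but the log2 fold change of -0.37 for P9 minus P3 did not pass (limma, adjusted p = 0.329). FFSS minus P3 was 0.23 (adjusted p = 0.448), with FFSS replicate 1 below all P3 libraries. P9 minus FFSS was -0.60 (adjusted p = 0.0529), and -0.80 without FFSS replicate 1, when it passed (adjusted p = 0.00432, within 0.00176 to 0.387 over its 18 alternatives).

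**Figure D2:**
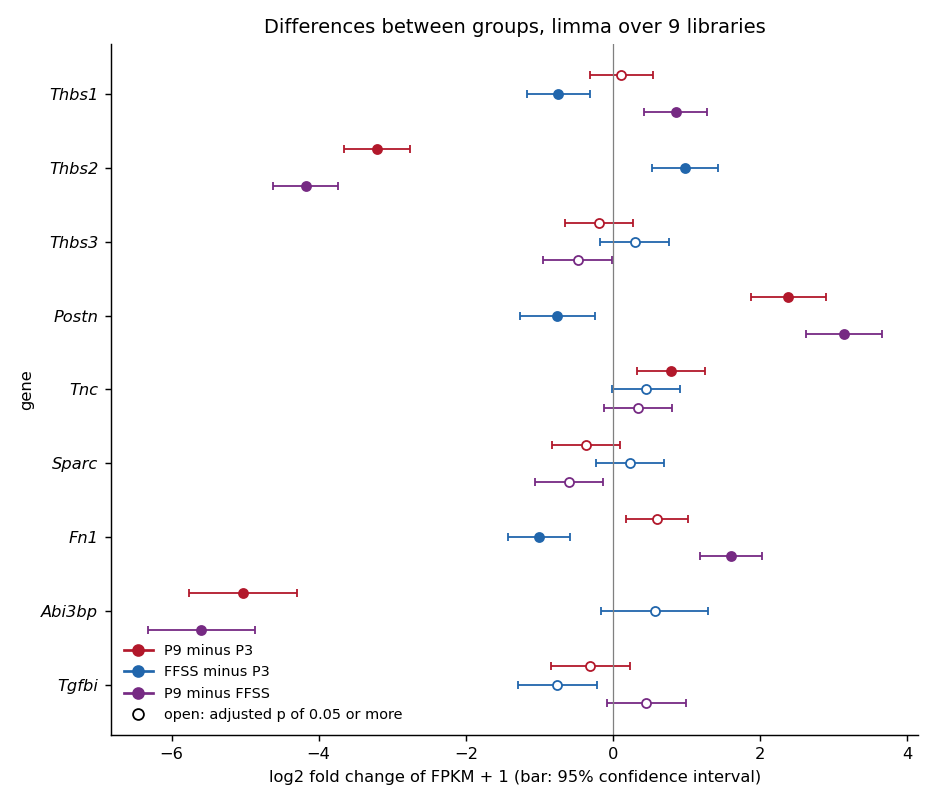
Log2 fold change of FPKM + 1 (horizontal axis) of each gene in the comparisons of P9 with P3 (red), FFSS with P3 (blue) and P9 with FFSS (purple); bars are 95% confidence intervals from limma, and open points did not pass an adjusted p of 0.05. In both comparisons of P9, Abi3bp and Thbs2 lie to the left (-5.03 and -3.21 against P3, -5.60 and -4.18 against FFSS) and Postn to the right (2.38 against P3, 3.14 against FFSS).

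Without FFSS replicate 1, FFSS minus P3 was -0.59 for Thbs1, 1.12 for Thbs2, 0.54 for Thbs3, -0.51 for Postn and 0.54 for Tnc on the log2 scale. It was 0.43 for Sparc, -1.19 for Fn1, 0.48 for Abi3bp and -0.81 for Tgfbi. P9 minus FFSS was then 0.70 for Thbs1, -4.32 for Thbs2, -0.73 for Thbs3, 2.89 for Postn and 0.26 for Tnc, and -0.80 for Sparc, 1.79 for Fn1, -5.50 for Abi3bp and 0.50 for Tgfbi. Every direction was as with all libraries, and the calls that changed are given with each gene.

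Of the 9 genes, 2 rose and 2 fell in P9 relative to P3, where 9.83% of the 13059 tested genes were called (5.39% higher and 4.44% lower). In FFSS relative to P3, 1 rose and 3 fell, where 21.8% of genes were called (11.4% higher and 10.4% lower). In P9 relative to FFSS, 3 were higher and 2 lower, where 31.4% were called (16.1% higher and 15.3% lower). Without FFSS replicate 1 the calls of FFSS minus P3 became 2 higher and 4 lower, in a background of 39% (19.3% higher and 19.7% lower), and those of P9 minus FFSS 3 higher and 4 lower, in a background of 45.7% (23.7% higher and 22% lower). Those of P9 minus P3 became 3 higher and 2 lower, in a background of 17.3% (9.53% higher and 7.78% lower). For FFSS minus P3 there were 2 calls without P3 replicate 1, in a background of 9.12%, and 2 without P3 replicate 2, in a background of 10.1%, against 21.8% with all libraries. The same backgrounds apply to the counts of the marker lists and the related lists. None of those lists was tested against them. The groups did not overlap for 7 of the 9 genes in P9 against P3, where 40.1% of all tested genes did not overlap, for 6 in FFSS against P3 (42.4%) and for 8 in P9 against FFSS (42.2%). The first and second comparisons share the P3 libraries. The median log2 fold change of the 9 genes was -0.19 for P9 minus P3, 0.23 for FFSS minus P3 and 0.34 for P9 minus FFSS. These are the uncalled values of Thbs3, Sparc and Tnc, in that order, with genes called in both directions around them. The median of all tested genes lay between -0.01 and 0.003 (log2).

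The total of the 9 genes varied less than their make-up. Their summed FPKM was 15088, 14213 and 13264 in P9, 10046, 14273 and 12689 in FFSS, and 13088, 14188 and 12158 in P3. Sparc made up 29.5 to 35.6% of the sum in P9, 53.5 to 64.6% in FFSS and 45.6 to 47.3% in P3. Fn1 made up 23.4 to 24.4% in P9, 5.92 to 14.2% in FFSS and 16.3 to 17.6% in P3. Periostin took 9.52 to 12.0% in P9, 1.24 to 1.58% in FFSS and 2.20 to 2.32% in P3, and Thbs2 took 0.252 to 0.462% in P9, 6.67 to 7.11% in FFSS and 2.79 to 3.77% in P3. The ratio of Fn1 to Sparc FPKM was 0.800, 0.657 and 0.704 in P9, 0.266, 0.0917 and 0.155 in FFSS, and 0.377, 0.355 and 0.371 in P3, so that every P9 library lay above and every FFSS library below the P3 range. In fragments, which also count transcript length, the 9 genes took 6.14 to 6.86% of each P9 library, 3.90 to 4.40% of each FFSS library and 4.796 to 5.39% of each P3 library. These sums are descriptions of a chosen list and were not tested.

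**Figure D3:**
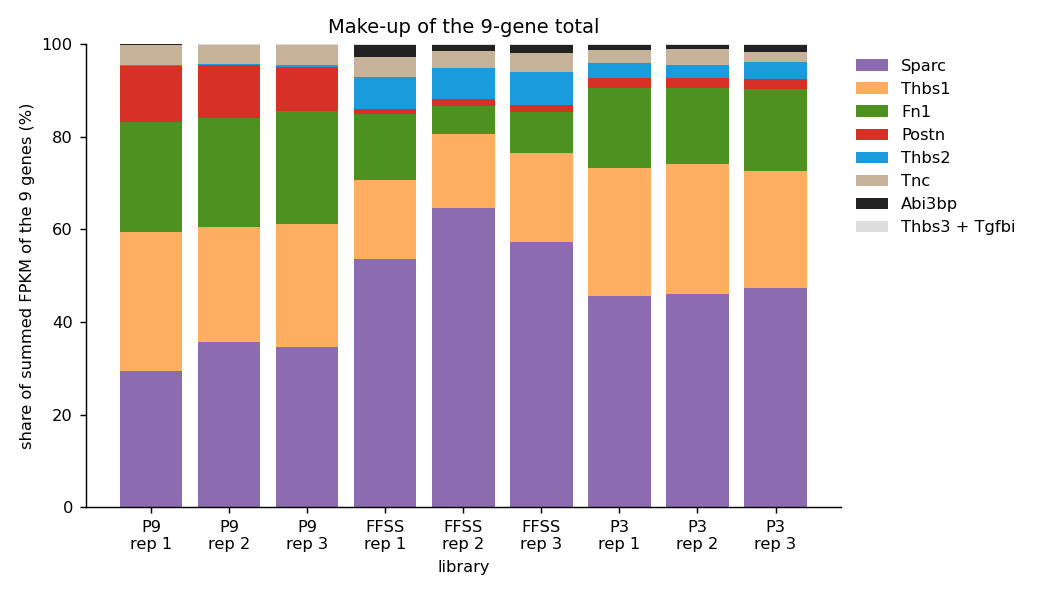
Share of the summed FPKM of the 9 genes (vertical axis, %) taken by each gene in each library (horizontal axis). Periostin (red) took 9.52 to 12.0% in P9, Thbs2 (blue) 6.67 to 7.11% in FFSS, and Sparc (purple) the largest share of all in FFSS, at 53.5 to 64.6%.

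Markers of other cell types moved beside these genes. Of 6 tested markers of smooth muscle and myofibroblasts, 4 rose in P9 relative to P3 and none fell, and 2 fell in FFSS. All 7 listed were in the table, none was at 0 in every library of a group, and their summed level was 8285 to 9798 FPKM in P9, 3157 to 4608 FPKM in FFSS and 3568 to 4273 FPKM in P3. Of 6 tested tendon and ligament markers, 3 fell (Fmod, Mkx and Tnmd) and 1 rose (Egr1) in P9, and 2 rose in FFSS (Egr1 and Tnmd). Scx and Thbs4 passed in neither. The sums were 308 to 469 FPKM in P9, 2035 to 2986 FPKM in FFSS and 1403 to 1548 FPKM in P3, with Kera at 0 in P9 and P3. Fmod, which averaged 72.4 FPKM in P9, 1939 FPKM in FFSS and 1121 FPKM in P3, made up most of the FFSS and P3 sums. Of 9 leukocyte markers in the table, 2 were tested, Cd14 and Cd68, and both rose in FFSS. Their sum was 5.14 to 5.66 FPKM in P9, 42.3 to 107 FPKM in FFSS and 9.60 to 11.1 FPKM in P3, with Adgre1, Tyrobp, Lyz2, Aif1 and C1qa at 0 in P9, Adgre1 at 0 in FFSS, and Tyrobp, Aif1 and C1qa at 0 in P3. Cd14 made up most of the FFSS sum, at 39.9, 94.3 and 67.5 FPKM. The untested Lyz2 stood at 0.0562, 5.36 and 2.94 FPKM in FFSS replicates 1, 2 and 3. Csf1r, also untested, stood at 0.0840, 3.17 and 2.08 FPKM in the same order. In P9 and P3 Lyz2 did not exceed 0.305 FPKM and Csf1r 0.218 FPKM. Ptprc, which marks all leukocytes, did not exceed 0.0400 FPKM. The part of other cells in the results was not tested, and in bulk samples fewer cells of a type and less RNA per cell cannot be told apart.

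Among the other thrombospondins and tenascins, 3 of 5 listed genes were tested. Tnn, tenascin N, a tenascin of bone and periosteum also called tenascin W, stood at 52.9, 55.2 and 88.6 FPKM in P9, at 334, 650.1 and 568 FPKM in FFSS, and at 515, 499 and 509 FPKM in P3. It fell in P9, below every other library. Its log2 fold change was -2.97 ± 0.27 for P9 minus P3 (limma, adjusted p = 0.000360) and -2.95 for P9 minus FFSS (adjusted p = 0.000125). Thbs4, a thrombospondin of tendon and muscle, averaged 205 ± 1.67 FPKM in P9, 232 ± 63.8 FPKM in FFSS and 224 ± 35.4 FPKM in P3 (SD, n = 3) and passed nowhere. Comp, the cartilage thrombospondin, averaged 1.71 ± 1.21 FPKM in P9, 5.48 ± 4.27 FPKM in FFSS and 6.87 ± 0.446 FPKM in P3 (P9 minus P3 -1.62, adjusted p = 0.0702). The count lower was 2 in P9 relative to P3 without FFSS replicate 1 or 2, and 2 in P9 relative to FFSS without FFSS replicate 1. Tnxb was not matched by symbol and was not analysed here.

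Of 13 tested other matricellular genes, 1 rose and 2 fell in P9 relative to P3, and 2 rose and 1 fell in FFSS. The shares called over all tested genes were 9.83% and 21.8%. Ccn3, a growth-restraining member of the CCN family, was higher in both, at 128, 109 and 101 FPKM in P9, 107, 45.3 and 66.2 FPKM in FFSS, and 24.0, 24.3 and 21.98 FPKM in P3. The log2 fold change was 2.21 for P9 minus P3 (limma, adjusted p = 0.00123) and 1.51 for FFSS minus P3 (adjusted p = 0.00625). Ccn5, which lacks the carboxy-terminal module of its family, fell in P9 (-1.65, adjusted p = 0.00245), as did Spon2, a secreted spondin (-1.05, adjusted p = 0.00863). Spp1, osteopontin, rose in FFSS to 1252 ± 183 FPKM, against 636 ± 113 FPKM in P3 (SD, n = 3, limma adjusted p = 0.00987), and Spock2, a testican, fell by 0.64 (adjusted p = 0.0226). The Spock2 call was lost without FFSS replicate 3 (0.0734) or P3 replicate 1 (0.0933), 2 (0.0682) or 3 (0.0638). The best-known YAP-responsive members did not pass: Ccn1 averaged 449 ± 58.7 FPKM in P9, 570 ± 327 FPKM in FFSS and 408 ± 46.9 FPKM in P3, and Ccn2 2817 ± 56.3, 2239 ± 279 and 2711 ± 340 FPKM in the same order of groups. For Ccn1 the FFSS libraries were split. FFSS replicate 1, at 224 FPKM, lay below every P3 library (358 to 451 FPKM). FFSS replicates 2 and 3, at 873 and 612 FPKM, lay above every one. Between P9 and FFSS, 3 genes were higher in P9 and 3 lower, led by Smoc1 (1.76, adjusted p = 0.00332), Ccn5 (-1.24, adjusted p = 0.00394) and Lgals1 (0.76, adjusted p = 0.0125). The Lgals1 call was lost without FFSS replicate 3 (0.0503). Smoc1 was low, at 3.45, 3.62 and 6.25 FPKM in P9 and 0.621, 0.399 and 0.703 FPKM in FFSS. For this list, 2 rose in P9 relative to P3 without FFSS replicate 1 or P3 replicate 2. In FFSS relative to P3, 4 rose and 2 fell without FFSS replicate 1, 2 fell without FFSS replicate 2, and none fell without FFSS replicate 3 or P3 replicate 1 or 2. In P9 relative to FFSS, 3 were higher and 4 lower without FFSS replicate 1, and 1 was higher without FFSS replicate 3.

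Of 15 tested receptors, 3 rose and 2 fell in P9 relative to P3, and 2 rose and 1 fell in FFSS. Of all tested genes, 9.83% were called in P9 relative to P3 and 21.8% in FFSS. Without FFSS replicate 1 those shares were 17.3% and 39%. Itgb3, the beta chain of the vitronectin receptor, fell in P9 to 0.644, 0.384 and 0.388 FPKM, against 8.77, 7.46 and 10.1 FPKM in P3 (log2 fold change -2.73, limma, adjusted p = 0.00112). Itga3, an alpha chain for laminins, rose by 1.12 (adjusted p = 0.00129). Itga9, an alpha chain that binds tenascin C, had a log2 fold change of -1.21 (adjusted p = 0.00487). Its levels were low, at 0.118, 0.232 and 0.179 FPKM in P9 and 1.76, 1.12 and 2.44 FPKM in P3. In FFSS, Sdc4, a heparan sulfate co-receptor of fibronectin, rose to 175 ± 48.7 FPKM, against 65.7 ± 7.28 FPKM in P3 (SD, n = 3, limma adjusted p = 0.00516). Itgb5, which pairs with Itgav, rose by 0.84 (adjusted p = 0.0117, and 0.0543 without P3 replicate 1). Cacna2d1, a calcium channel subunit to which thrombospondins bind, fell by 1.05 (adjusted p = 0.0356). That call was lost without P9 replicate 2 (0.0522), FFSS replicate 2 (0.0841) or 3 (0.0928), or P3 replicate 1 (0.105), 2 (0.119) or 3 (0.0555). Between P9 and FFSS, 4 were higher in P9 and 5 lower, led by Itga3 (1.37, adjusted p = 0.000176), Itga9 (-1.64, adjusted p = 0.000486) and Itgb3 (-2.04, adjusted p = 0.00183). The receptor counts moved with single libraries. In P9 relative to P3, 1 rose without P9 replicate 1 or 2 or P3 replicate 1 or 3, 4 rose and 4 fell without FFSS replicate 1, and 4 fell without FFSS replicate 2. In FFSS relative to P3, 4 rose and 4 fell without FFSS replicate 1, 1 rose without P3 replicate 1, and none fell without P9 replicate 2, FFSS replicate 2 or 3 or any one P3 library. In P9 relative to FFSS, 4 were higher and 5 lower without FFSS replicate 1.

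Of 12 tested genes of assembly, folding and processing, Tgm2 alone rose in P9 relative to P3 and none fell. The count that fell was 5 without FFSS replicate 1, 3 without FFSS replicate 2 and 1 without P9 replicate 1. Tgm2, transglutaminase 2, which crosslinks fibronectin and other matrix proteins, had a log2 fold change of 1.71 (limma, adjusted p = 0.00193). In FFSS, 3 rose and 2 fell. Tgm2 was among those that rose, so it was higher in both models (log2 fold change 1.03 for FFSS minus P3, limma, adjusted p = 0.0129). Its levels were low, with means of 5.16 FPKM in P9, 2.91 FPKM in FFSS and 0.885 FPKM in P3. The Tgm2 call in FFSS was lost without P3 replicate 3, when Mmp2 alone rose. Mmp2, gelatinase A, stood at 489, 495 and 431 FPKM in P9, at 1999.9, 1539 and 1648 FPKM in FFSS, and at 671, 599 and 703 FPKM in P3. It rose in FFSS, whose libraries all lay above the others (log2 fold change 1.39, limma, adjusted p = 0.000691). Adamts1, a protease with thrombospondin repeats, fell by 1.40 (adjusted p = 0.00194), and Tll1, a tolloid-like protease, by 1.08 (adjusted p = 0.00894). Between P9 and FFSS, 3 were higher in P9 and 5 lower, among them Mmp2 (-1.87, adjusted p = 4.18e-05), Tll1 (1.30, adjusted p = 0.00209) and Pofut2, the enzyme that adds fucose to thrombospondin repeats (-0.88, adjusted p = 0.00769). Without FFSS replicate 1, 4 rose and 3 fell in FFSS relative to P3, and 3 were higher and 5 lower in P9 relative to FFSS. In FFSS relative to P3, 1 rose without P3 replicate 3, and in P9 relative to FFSS 3 were lower without FFSS replicate 3.

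Of 16 TGF-beta genes, 1 rose and 3 fell in P9 relative to P3. Tgfb2, a TGF-beta ligand, rose by 1.59 (limma, adjusted p = 0.00136), and the corepressor Ski (-0.83, adjusted p = 0.00229) and the signal transducer Smad3 (-0.90, adjusted p = 0.00915) fell, Smad3 missing the threshold without P3 replicate 3 (0.0501). In FFSS, 5 rose and 3 fell. There, 3 rose without P9 replicate 2, FFSS replicate 3 or any one P3 library, none fell without FFSS replicate 2 or 3 or any one P3 library, 1 fell without P9 replicate 2 or 3, and 4 rose and 4 fell without FFSS replicate 1. Tgfbr3, the betaglycan co-receptor, rose to 10.8, 18.1 and 17.3 FPKM, against 5.50, 4.79 and 5.98 FPKM in P3 (log2 fold change 1.32, limma, adjusted p = 0.00293). The corepressors Tgif1 (1.13, adjusted p = 0.00703) and Skil (1.06, adjusted p = 0.00873) also rose in FFSS. Ski was lower there too (-0.40, adjusted p = 0.0344), so the corepressors did not all move alike. The Ski call in FFSS was among those lost without FFSS replicate 2 or 3 or any one P3 library. Between P9 and FFSS, 4 genes were higher in P9 and 6 lower, led by Tgfbr3 (-1.85, adjusted p = 0.000233), Tgfb2 (1.65, adjusted p = 0.000452) and the receptor Tgfbr2 (-1.27, adjusted p = 0.000802). Without FFSS replicate 1, 3 rose and 4 fell in P9 relative to P3, and 6 were higher and 7 lower in P9 relative to FFSS. In P9 relative to P3, 3 rose without FFSS replicate 2 and 2 without P3 replicate 2. There, 1 fell without P3 replicate 3, and 2 fell without P3 replicate 1, P3 replicate 2 or any one P9 library.

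**Figure D4:**
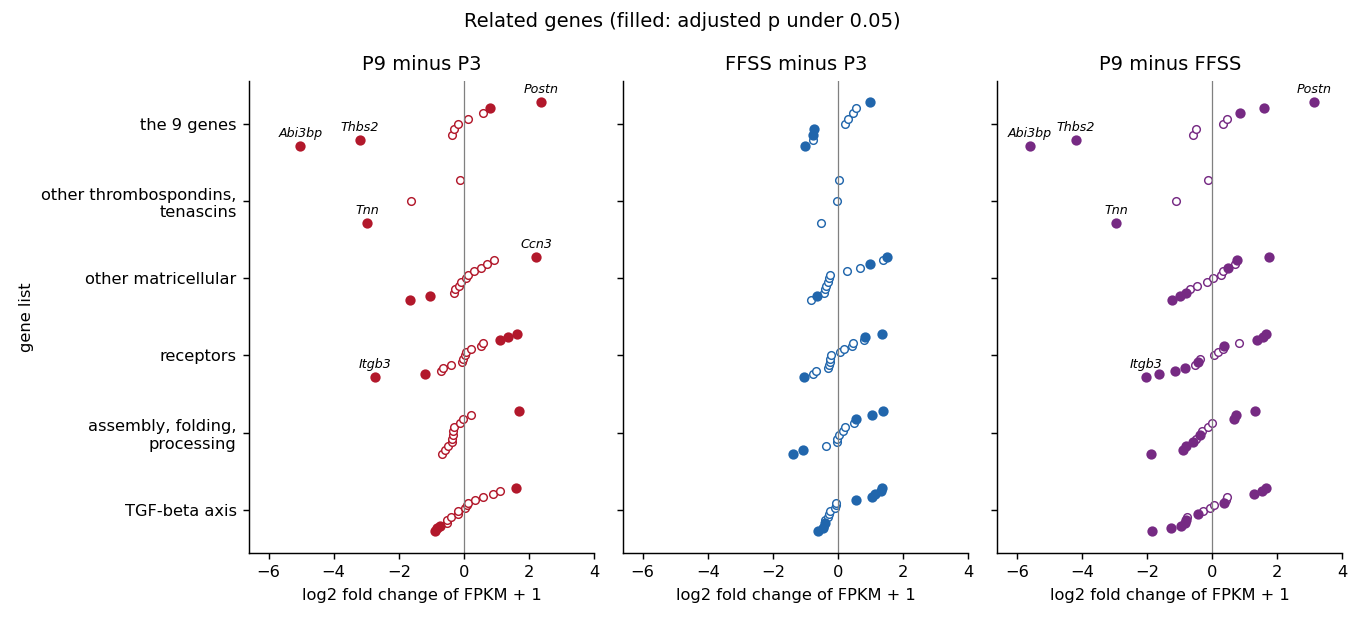
Log2 fold change of FPKM + 1 (horizontal axes) of each tested gene in the 9-gene list and 5 related lists (rows), 1 panel per comparison; filled points passed an adjusted p of 0.05, and passing genes beyond 2 in size are named. Tnn, Ccn3 and Itgb3 are the named related genes in P9 minus P3, and no gene is beyond 2 in FFSS minus P3.

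Patterns over the 9 libraries were compared by the mean absolute difference of log2(FPKM + 1), each gene centred on its own mean, among 6003 genes of at least 10 FPKM. Nearest to Thbs2 were Fgfr1 (0.30), Hopx (0.36) and Klf4 (0.42). Fgfr1, a fibroblast growth factor receptor, averaged 19.2 FPKM in P9, 194 FPKM in FFSS and 134 FPKM in P3. Nearest to Abi3bp were Fmod (0.38), Pla2g2a (0.41) and Sfrp2 (0.63). Fmod, a collagen-binding proteoglycan, averaged 72.4 FPKM in P9, 1939 FPKM in FFSS and 1121 FPKM in P3. Nearest to Postn were Ggta1 (0.14), Pgm5 (0.21) and Dysf (0.29), with Ggta1 at 24.6 FPKM in P9, 1.93 FPKM in FFSS and 3.69 FPKM in P3. Nearest to Fn1 were Soga1, Jpt2 and Bok (0.08 to 0.09), to Thbs1 Wnk1, Macf1 and Serinc4 (0.08 to 0.10), and to Tnc Col8a1, Msrb3 and Plekhb2 (0.09 to 0.12). Among the 9 genes themselves the closest pair was Thbs3 and Sparc, at 0.08. These distances only rank likeness, and genes with small changes lie near many others.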

How the data were processed

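Per the labels' protocols, mRNA was purified with poly-T beads and cDNA made with random primers. Reads were processed with HISAT2 2.0.5, featureCounts 1.5.0-p3 and Rnor_6.0, per the submitters' processing notes; settings and strandedness are not given in the sources used here. The authors deposited FPKM for 34267 genes and 9 libraries, with a gene length in bases per gene, per the file headers. FPKM multiplied by gene length came out as whole steps of 1 size per library for 100% of values (tolerance 0.01 of a step), which gave the fragments behind each value; the steps matched median-of-ratios size factors, so the deposited FPKM carry that scaling. At 1 kilobase, 1 fragment equals 0.0619 to 0.0733 FPKM. That precision covers counting error only, because without molecular identifiers PCR copies count as separate fragments.

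The 13059 genes that reached 1 FPKM in 3 or more libraries were fitted as log2(FPKM + 1), which understates changes of low genes, with limma 3.58.1 in R 4.3.3: group means over 9 libraries, an expression-dependent trend, 6 residual degrees of freedom and two-sided tests. Genes were called at an adjusted p (Benjamini-Hochberg) under 0.05 over all tested genes. The fit was also run on simulated counts with the same spread in every library and changes in P9 only. The real libraries differed in spread, so that run does not speak for calls that depend on single libraries. Tables and figures used Python 3.11.15, pandas 2.3.3 and matplotlib 3.10.9. Alternatives were other pseudocounts, filters, scaling and fits, voom on fragments, and leaving out each library. The genes, lists and motifs were chosen with earlier results of these data known. Related genes named were Thbs4, Comp, Tnxb, Ccn1, Ccn2 and Spp1 and, per list and comparison, up to 3 called genes with the smallest adjusted p. Genes of like pattern were the 3 nearest to each gene called in P9 or FFSS relative to P3. Promoter windows came from RefSeq (GRCr8).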

Additional observations from a re-analysis of the deposited data

How the results depend on the processing

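Over 27 gene comparisons and 18 alternatives (486 values), 441 kept their call, 21 lost it, 24 gained one and 0 called values reversed. In 1 uncalled value the sign changed, that of Thbs1 in P9 relative to P3 without P9 replicate 1 (-0.01). In the comparison of FFSS with P3, the count of the 9 genes called was 4, against 2 without a filter, 2 with the replicate number as a block and 9 with library quality weights, and 2 to 6 without single libraries. Between P9 and FFSS it was 5, and 8 with library quality weights. All tested genes called in P9 relative to P3 numbered 1284, against 4293 with library quality weights, 2466 with only the libraries compared and 589 to 2228 without single libraries. In FFSS relative to P3 they numbered 2845, against 8626 with the weights and 1178 to 5022 without single libraries. Between P9 and FFSS they numbered 4100, against 7550 with the weights, 2537 with only the libraries compared and 2566 to 5876 without single libraries. The causes were not tested. The weights put 8.13 on P3 replicate 1 and 0.149 on FFSS replicate 1. They were estimated gene by gene, since the default estimate did not converge.

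Same-numbered libraries of different groups did not deviate together (r of -0.04 to 0.03 across genes), so the numbers do not pair the libraries. With the block, Tnc in P9 (adjusted p = 0.0649) and Thbs1 (0.0546) and Postn (0.0589) in FFSS missed the threshold, while no other of the 9 genes changed its call. Depth limits Tgfbi most, with 103 fragments in its lowest library.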

Other observations

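Within the P3 group the order of the libraries differed between genes. P3 replicate 2 was the highest P3 library for 7 of the 9 genes and the lowest for the other two, Thbs2 and Abi3bp, whereas P3 replicate 3 was the lowest for 6 genes and the highest for Thbs2 and Abi3bp. Among P9 libraries, replicate 1 was the highest for Thbs1, Postn, Tnc and Fn1 and the lowest for Thbs2, Thbs3, Sparc and Abi3bp, and replicate 3 was the lowest for the first 4 and the highest for Thbs2, Abi3bp and Tgfbi. Thbs2 and Abi3bp, the genes that fell at passage 9, thus took the opposite end of the libraries from Postn and Tnc, the genes that rose, among P9 and among P3 libraries alike. Among FFSS libraries the order was another: replicate 1, which stood apart across all genes, was the lowest for 6 genes, Thbs2, Postn and Tnc among them, and the highest for Fn1, Abi3bp and Tgfbi. These orders rest on 3 libraries a group and were not tested. Some rest on small differences, as for Thbs3 in P3 (14.1, 14.6 and 14.4 FPKM). How many of all tested genes ordered the libraries alike was not counted, so the orders cannot be called particular to these genes. The genes that rose or fell were also picked from these same libraries.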
